A study of Mus musculus with 12 samples.

Results

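The suppressors of cytokine signalling are a family of 8 mouse genes, *Cish* and *Socs1* to *Socs7*, and BATF binding around them was examined in Th9 and Th17 cells. All 8 genes were chosen by name, out of 21887 protein-coding genes with a RefSeq model on the mm10 (GRCm38) assembly. A BATF peak was assigned to a gene when its summit, the base with the highest signal, lay in the gene body or within 50 kb of it. Of 6260 peaks in 4 BATF libraries, 3 peaks met this rule, and they lay at 2 of the 8 genes. *Cish* had 1 peak in a Th9 library and *Socs1* had 2 peaks in a Th17 library. *Socs2*, *Socs3*, *Socs4*, *Socs5*, *Socs6* and *Socs7* had none in any library.

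Naive CD4+ T cells of wild-type C57BL6/J mice were activated through CD3 and CD28 and cultured under Th9 or Th17 conditions. Th9 cultures received IL-4, TGF-β and IL-2 with an antibody to IFN-γ. Th17 cultures received IL-6, TGF-β, IL-23 and IL-1β with antibodies to IFN-γ, IL-4 and IL-2, so that IL-2, a main inducer of several SOCS genes, was supplied in one culture and blocked in the other. Cells were fixed at the end of the culture without restimulation, and chromatin was precipitated with an antibody to BATF (2 libraries per cell type) or control IgG, or kept as input. Whole cultures were used, and the labels do not say whether the libraries came from separate mice or cultures, so the p-values below measure only the spread between libraries. The animals' ages are given for the study as a whole and not by library.

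SOCS proteins are feedback inhibitors of the JAK-STAT pathway. A cytokine receptor activates JAK kinases, these phosphorylate STAT transcription factors, and the STATs switch on several SOCS genes. The SOCS protein then binds phosphorylated receptors or kinases through its SH2 domain, and its SOCS box recruits elongins B and C and a cullin ubiquitin ligase. SOCS1 and SOCS3 can also block JAK activity directly. In T helper cells, CIS (the product of *Cish*) is induced by IL-2 through STAT5, SOCS1 restrains IFN-γ and common γ chain cytokines, and SOCS3 restrains IL-6 and IL-23 signalling through STAT3. BATF is a basic leucine zipper factor of the AP-1 family, required for Th17 and Th9 cytokine expression, that binds AP-1 sites with JUN proteins and composite elements with IRF4.

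The sequences around the 3 summits are shown because they differ in the sites they hold for BATF. Each is the plus strand of GRCm38 from 100 bp before to 100 bp after the summit (201 bp), and capitals mark AP-1 sites, TGACTCA or its reverse complement TGAGTCA.

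*Cish* site, Th9, chr9:107278600-107278800: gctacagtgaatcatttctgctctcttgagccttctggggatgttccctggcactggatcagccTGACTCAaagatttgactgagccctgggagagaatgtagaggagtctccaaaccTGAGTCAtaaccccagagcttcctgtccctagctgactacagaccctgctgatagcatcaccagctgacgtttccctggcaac

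*Socs1* distal site, Th17, chr16:10754598-10754798: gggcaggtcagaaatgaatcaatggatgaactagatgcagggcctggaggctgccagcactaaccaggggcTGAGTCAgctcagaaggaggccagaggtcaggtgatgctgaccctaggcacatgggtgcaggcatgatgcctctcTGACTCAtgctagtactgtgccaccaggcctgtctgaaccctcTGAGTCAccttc

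*Socs1* proximal site, Th17, chr16:10772108-10772308: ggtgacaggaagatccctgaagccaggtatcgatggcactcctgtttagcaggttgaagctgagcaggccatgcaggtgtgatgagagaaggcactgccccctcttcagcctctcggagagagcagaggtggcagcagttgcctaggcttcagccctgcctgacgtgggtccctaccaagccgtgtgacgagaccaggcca

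The *Cish* window held 2 AP-1 sites, centred 33 bp before and 21 bp after the summit on the plus strand. The distal *Socs1* window held 3, centred 26 bp before, 49 bp after and 92 bp after its summit. The proximal *Socs1* window held none, and the nearest AP-1 site to its summit was 670 bp away. No window held a CRE (TGACGTCA), either form of the AP-1 and IRF composite element, or the STAT palindrome TTCNNNGAA, all searched on both strands. The nearest such palindrome was 135 bp from the proximal *Socs1* summit, 883 bp from the distal one and 1916 bp from the *Cish* summit. Of all 6260 peak windows, 18.8% held an AP-1 site and 9.04% the STAT palindrome, and of windows centred 2000 bp to either side of the summits 3.38% and 7.21% did. The composite element was present in 1.10% (spaced form) and 1.26% (adjacent form) of peak windows, and the CRE in 0.256%. An AP-1 site inside a composite element was counted for both. The 3 windows had GC contents of 52.2%, 56.7% and 59.7% in the order printed, all above the upper quartile of all windows (median 41.8%, quartiles 36.3% and 46.8%). A match of letters is a description of the sequence, and binding by any partner of BATF at these sites was not measured.

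Each library was called by the authors with MACS2 against input plus IgG, and these lists are used unless another is named. Th9 library 1 had 1709 peaks, Th9 library 2 had 241, Th17 library 3 had 4111 and Th17 library 4 had 199. In the larger library of each cell type, 89.1% (Th9) and 93.9% (Th17) of peaks overlapped no peak of any other library, against 53.9% and 41.2% in the smaller libraries. All 3 peaks at SOCS genes came from the larger libraries. Fold enrichment compares the signal at a summit with a local background estimated from the control, and the q value is the p-value adjusted over the genome, given as −log10. The lists hold no read counts, so the depth is unknown, and a gene without a peak is a gene without signal above that library's threshold rather than a gene shown to be unbound.

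*Cish*, which encodes the STAT5-induced inhibitor CIS, is on the plus strand of chromosome 9 (107296659-107302784). It had 1 peak in Th9 library 1 and 0 peaks in Th9 library 2, Th17 library 3 and Th17 library 4. The peak covered 292 bp (107278664-107278955), with its summit at 107278700, 18 kb upstream of the *Cish* start. This position is in an intron of *Mapkapk3*, a kinase gene of the p38 pathway, and the *Mapkapk3* start, at 10696 bp, is closer than that of *Cish*. 4 protein-coding genes, *Mapkapk3*, *Cish*, *Dock3* and *Hemk1*, lay within 50 kb of the summit. The fold enrichment was 5.36 and the −log10 q 3.82, which ranked the peak 966th by fold and 754th by q among 1709 peaks. It was also called against input alone (fold 6.04, −log10 q 4.60) and against IgG alone (fold 4.64, −log10 q 3.10). In the other libraries the nearest summit to this site was 705 kb (Th17 library 3), 12127 kb (Th17 library 4) and 14836 kb (Th9 library 2) away. The *Cish* site was thus of ordinary strength for its library, was called against each control, and was seen in 1 of 4 libraries.

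*Socs1*, which encodes an inhibitor of JAK kinases, is a short gene on the minus strand of chromosome 16 (10783808-10785536). It had 2 peaks in Th17 library 3 and 0 peaks in Th17 library 4, Th9 library 1 and Th9 library 2. Both peaks lay between genes beyond the 3′ end of *Socs1*, 17510 bp apart, and the *Socs1* start was the nearest protein-coding start to each. The distal peak (298 bp, 10754533-10754830, summit 10754698) was 29.1 kb from the gene body, and was enriched 10.2-fold (−log10 q 13.0). It ranked 185th by fold and 197th by q of 4111 peaks, and was the strongest of the 3 peaks at SOCS genes. The proximal peak (176 bp, 10772172-10772347, summit 10772208) was 11.6 kb from the gene body. It was enriched 5.65-fold (−log10 q 4.12), and ranked 1721st by fold and 1830th by q.

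The controls separated the 2 *Socs1* peaks. The distal peak was called against input alone (fold 7.82, −log10 q 9.46) and against IgG alone (fold 10.2, −log10 q 13.0). The proximal peak was called against IgG alone (fold 5.65, −log10 q 4.07) and was absent from the list called against input alone. Of the distal peak, 18.1% was repeat-masked in the reference, and of the *Cish* and proximal *Socs1* peaks 0%. The same 6 protein-coding genes lay within 50 kb of either *Socs1* summit, namely *Socs1*, the sperm chromatin genes *Tnp2*, *Prm1*, *Prm2* and *Prm3*, and *Clec16a*, whose body was 9820 bp from the distal summit.

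**Figure D1:**
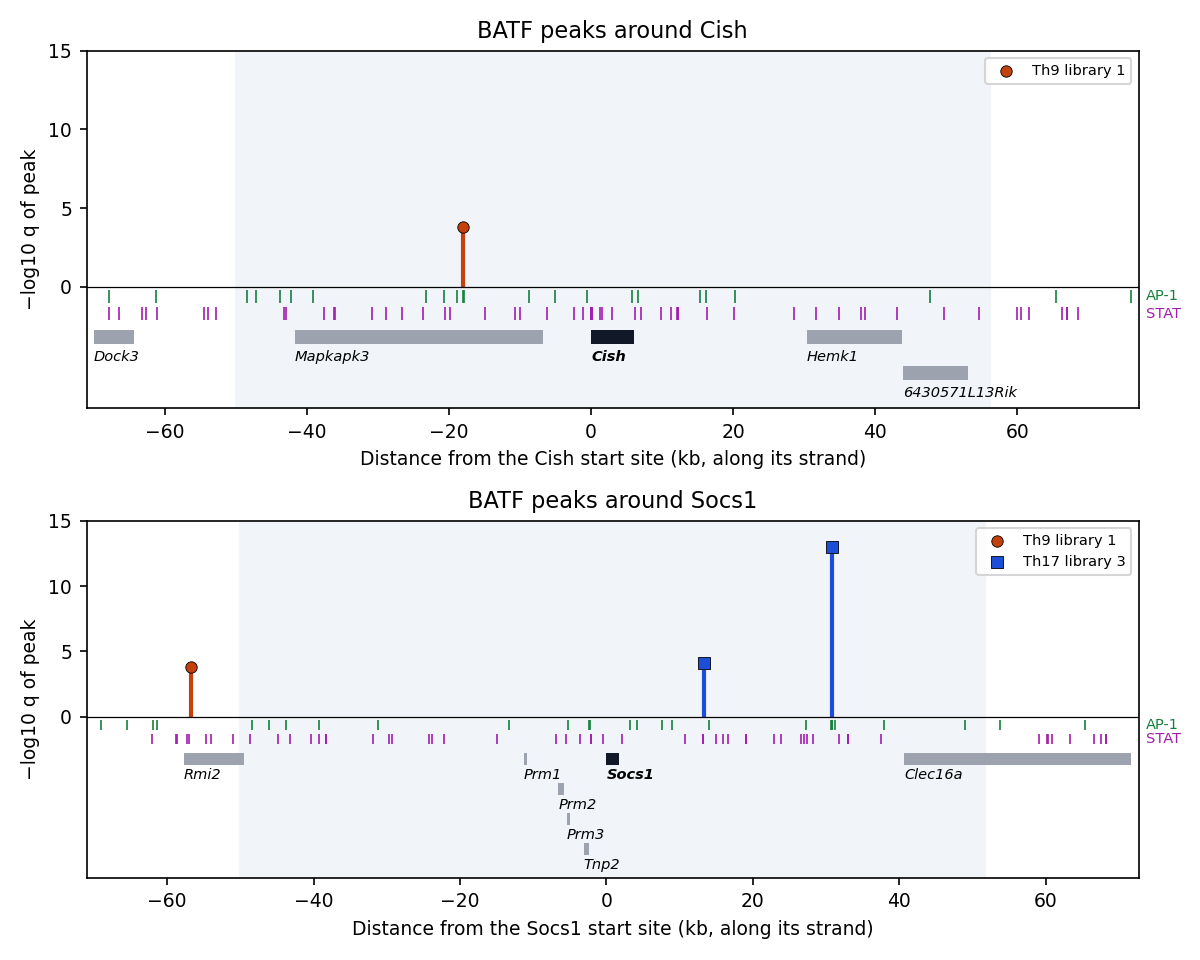
BATF peaks around *Cish* (top) and *Socs1* (bottom), with distance from each gene's start along its own strand on the horizontal axis and the −log10 q of each peak on the vertical axis; the shaded span is the gene body with 50 kb either side, green and purple ticks are AP-1 sites and STAT palindromes in the sequence, and bars are protein-coding genes. The *Cish* peak of Th9 library 1 (−log10 q 3.82) lies 18 kb upstream, the 2 *Socs1* peaks of Th17 library 3 (13.0 and 4.12) lie downstream, and a peak of Th9 library 1 lies outside the *Socs1* span.

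No peak lay in the body or promoter of a SOCS gene. None of the 8 genes had a summit in the body or within 10 kb, where 13.9% of all protein-coding genes did in at least 1 library. Within 50 kb, 2 of 8 genes had a summit in any library, against 28.7% of all protein-coding genes. Within 100 kb, 3 of 8 did, against 43.0%. SOCS gene bodies had a median length of 24189 bp (1729 to 36251), and all protein-coding genes one of 17169 bp. By library, 1 of 8 SOCS genes was called in Th9 library 1 (9.28% of all genes) and 0 in Th9 library 2 (1.70%), while Th17 library 3 called 1 (21.8%) and Th17 library 4 called 0 (1.22%). By cell type, 1 of 8 was called in Th9 (10.4% of all genes), 1 in Th17 (22.2%) and 0 in both (3.87%). With 8 genes, each gene is 1 count in these shares, and the SOCS counts are near the background in each library.

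The number of peaks at SOCS genes did not separate the cell types. It was 1 and 0 in the Th9 libraries (mean 0.500 ± 0.707, SD, n = 2) and 2 and 0 in the Th17 libraries (1.0 ± 1.41, SD, n = 2), so the groups overlapped. The difference, 0.500 peaks more in Th17, had an exact two-sided permutation p = 1.0. With 2 libraries a side, 6 splits are possible and the smallest p they can give is 0.333. As a share of each library's peaks, SOCS genes took 0.0585% and 0% in Th9 and 0.0486% and 0% in Th17, and the means, 0.0293% ± 0.0414 and 0.0243% ± 0.0344 (SD, n = 2), also overlapped (exact permutation p = 1.0). That *Cish* was called in Th9 only and *Socs1* in Th17 only therefore rests on 1 library each, and a difference between the cell types at either gene was not tested.

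**Figure D2:**
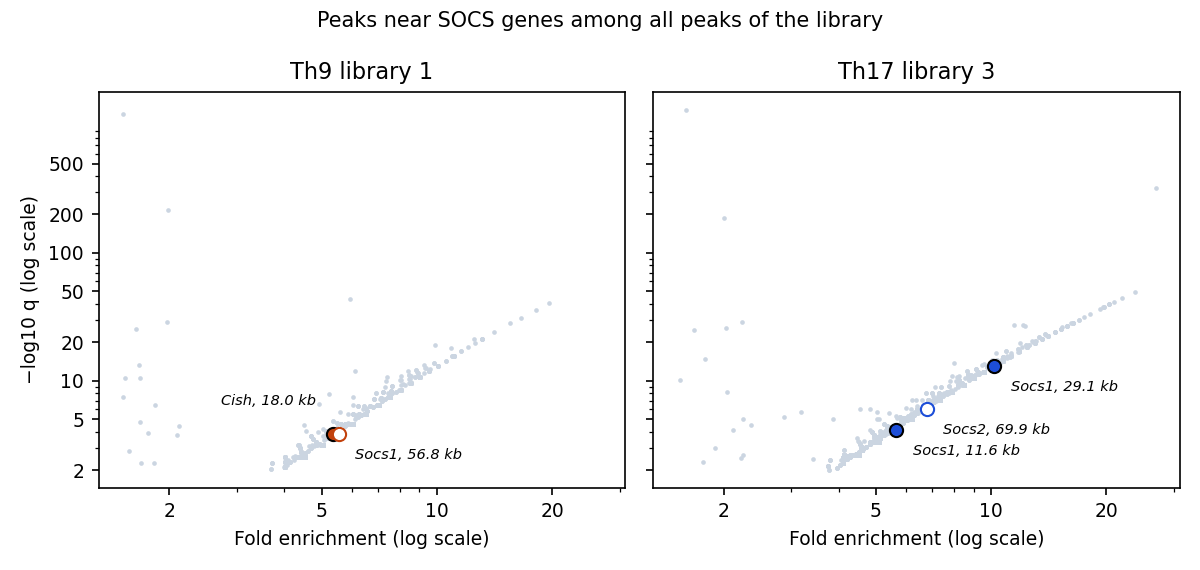
Fold enrichment (horizontal, log scale) against −log10 q (vertical, log scale) of every peak of Th9 library 1 (left) and Th17 library 3 (right) in grey, with peaks within 50 kb of a SOCS gene filled and those between 50 and 100 kb open. The distal *Socs1* peak (fold 10.2) stands in the upper part of its library, and the *Cish* (5.36) and proximal *Socs1* (5.65) peaks sit among the bulk.

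The farthest peak inside the 50 kb limit was the distal *Socs1* peak, at 29.1 kb. Between 50 and 100 kb there were 2 peaks. In Th9 library 1, a peak at chr16:10842282-10842463 had its summit 56.8 kb upstream of *Socs1*, in a UTR of *Rmi2*, a DNA repair gene (fold enrichment 5.54, −log10 q 3.82). It was called against each control, and with a limit of 100 kb *Socs1* had peaks in both cell types, though in different places, the nearest Th17 summit being 70.1 kb away. In Th17 library 3, a peak at chr10:95487171-95487433 had its summit 69.9 kb upstream of *Socs2*, in an intron of *Mrpl42*, which encodes a mitochondrial ribosomal protein (fold enrichment 6.78, −log10 q 6.0). *Socs2* encodes an inhibitor best known from growth hormone signalling. Neither of these windows held an AP-1 site, a composite element or a STAT palindrome.

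*Socs3*, the inhibitor of IL-6 family signalling and the member most closely tied to Th17 differentiation, had no peak within 50 kb in either cell type. Its nearest summit was 246 kb away in Th17 library 3 and 246 kb in Th17 library 4, and 1532 kb and 1560 kb away in the Th9 libraries. All 4 were far beyond the limit. That of Th9 library 2 stayed at 1560 kb against each control, and each of the others moved with 1 control. Against IgG alone the nearest summit in Th17 library 4 was 8023 kb away, and against input alone it was 126 kb away in Th17 library 3 and 695 kb in Th9 library 1. *Socs4* and *Socs5*, which act on epidermal growth factor receptor signalling, had their nearest summits at 340 kb and 143 kb, both in Th9 library 1. *Socs6* and *Socs7*, members with long amino-terminal regions, had theirs at 164 kb (Th9 library 1) and 135 kb (Th9 library 1 and Th17 library 3).

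Across the family, the median distance to the nearest summit was shorter in the 2 libraries with many peaks than in those with few. In Th9 library 1 it ran from 18 to 1532 kb with a median of 153 kb, and the median over all protein-coding genes was 510 kb. In Th17 library 3 it ran from 11.6 to 681 kb with a median of 234 kb, against 184 kb over all genes. In the smaller libraries the medians were 2302 kb (Th9 library 2, all genes 3639 kb) and 7728 kb (Th17 library 4, all genes 5229 kb). The family median was below that of all genes in both Th9 libraries and above it in both Th17 libraries, which was not tested.

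**Figure D3:**
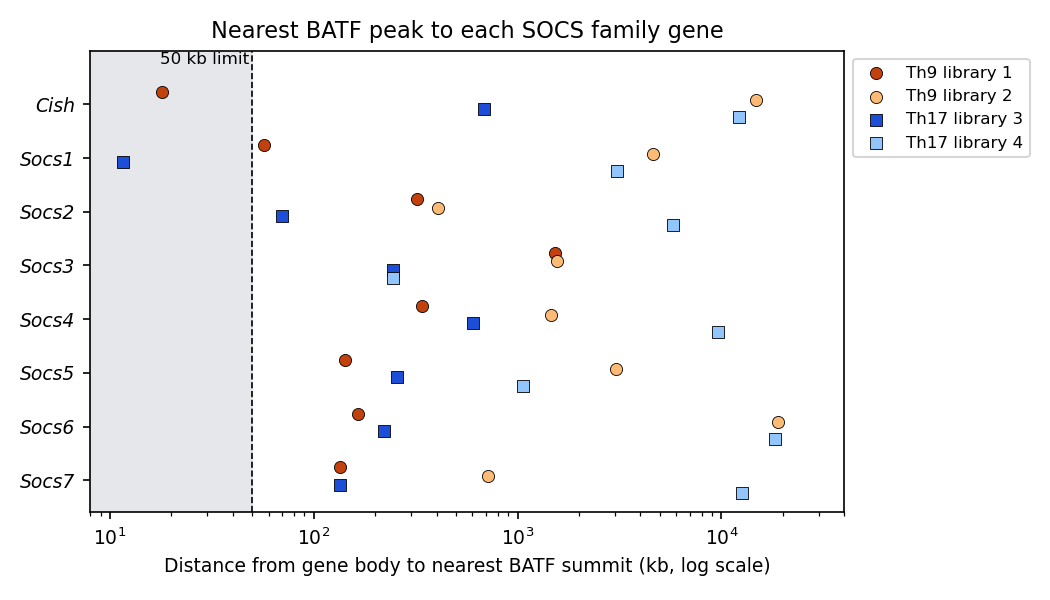
Distance from each SOCS gene body to the nearest BATF summit (kb, log scale) in each of the 4 libraries, with the 50 kb limit as a dashed line. Only *Cish* in Th9 library 1 (18 kb) and *Socs1* in Th17 library 3 (11.6 kb) fall inside the limit, and the smaller libraries lie between 246 and 18920 kb.

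AP-1 sites were counted in the sequence around all 8 genes, whether or not a peak was called. The bodies and 50 kb flanks of the 8 genes held 167 AP-1 sites, from 17 at *Socs7* to 24 at *Socs6*, with 19 at *Cish*, 21 at *Socs1* and 23 at *Socs3*. Of these 167, 5 (2.99%) lay within 100 bp of a BATF summit, all 5 in the *Cish* and distal *Socs1* windows printed above. The sites of a window share a summit, so the 5 are not independent. Over the windows of all protein-coding genes, 1031 of 285513 AP-1 sites (0.361%) lay that close to a summit. These shares were not tested against each other. *Socs3* and *Socs2*, which had no peak, held 23 AP-1 sites each. A relation between the number of AP-1 sites and a called peak was not tested. STAT palindromes numbered 362, from 37 to 60 per gene, and 0 lay within 100 bp of a summit.

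The promoters, where STATs act on some SOCS genes, were examined for the 4 members matched in the RefSeq promoter table used here (*Cish*, *Socs1*, *Socs3* and *Socs4*; GRCm38.p6, 250 bases before to 50 after the start). None held an AP-1 site, which 5.20% of 32851 promoters did. *Cish* held 2 STAT palindromes and *Socs3* held 1, a motif present in 8.30% of promoters. The *Cish* pair is printed because it lies at the annotated start and contrasts with the AP-1 pair of the upstream site.

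*Cish* STAT palindromes in capitals, plus strand, chr9:107296659-107296678: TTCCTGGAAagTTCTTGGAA

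The *Socs3* palindrome, TTCTTAGAA on the minus strand (chr11:117969512-117969520), lay at -154 to -146 relative to the curated start at 117969366. The RefSeq gene span used here runs 970 bp further upstream, so the palindrome is inside that span. In *Cish*, *Socs1* and *Socs4* the start and the end of the span are the same. Measured from the middle of each promoter, the nearest BATF summit was 17.9 kb away for *Cish*, 13.4 kb for *Socs1*, 247 kb for *Socs3* and 359 kb for *Socs4*. STAT binding was not measured in these files.

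The other genes of the pathway were read in the same way, from 4 lists with 30 genes. Of these, 18 had a peak in any library (28.7% of all protein-coding genes did), 9 in Th9 (10.4%), 13 in Th17 (22.2%) and 4 in both (3.87%). The median length of their bodies, 45532 bp, was above that of the SOCS genes and that of all protein-coding genes (17169 bp). The searched span grows with the body, and the part of length in these shares was not tested. These genes had 21 merged sites, of which 4 held an AP-1 site, as did 18.8% of all peak windows. Of the 21 sites, 2 were called in more than 1 library, and the share of all merged sites so called was not computed. Among the 6 genes of the SOCS box ligase list, *Cul5*, *Rnf7* and *Rbx1* had a peak in Th17 library 3 (21.8% of all genes did). Their −log10 q values were 9.30, 4.32 and 2.88. *Cul5* encodes a cullin, and *Rnf7* and *Rbx1* encode RING proteins. *Cul2*, the other cullin in the list, had no peak, and no ligase gene was called in the other libraries. Of the 7 STAT genes, 4 had a peak in Th9 library 1 (9.28% of all genes) and 0 in the Th17 libraries (22.2%). *Stat3*, *Stat5a* and *Stat5b*, which are neighbours, shared 1 site (fold enrichment 7.32, −log10 q 7.21), and *Stat4* had its own (−log10 q 3.15).

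The JAK kinases, the targets of SOCS1, held 1 of the 2 sites that were called in more than 1 library. *Jak2* had a peak in Th9 library 2 (fold enrichment 5.33, −log10 q 2.85) and an overlapping peak in Th17 library 3 (fold 11.3, −log10 q 15.6), in an intron. *Jak1* had 2 peaks and *Jak3* had 1 in Th17 library 3 alone, and *Tyk2* had none. Of the 4 JAK genes, 3 were thus called in Th17 library 3 (21.8% of all protein-coding genes) and 1 in Th9 library 2 (1.70%). Of 13 other inhibitors of the pathway, 8 had a peak in any library (28.7% of all genes) and 3 in both cell types (3.87%). *Pias1*, which encodes an inhibitor of activated STATs, was called in 3 libraries. Its intronic peaks in Th17 library 3 (fold enrichment 6.39, −log10 q 6.02) and Th17 library 4 (fold 7.57, −log10 q 6.82) overlapped, and that of Th9 library 1 (fold 5.37, −log10 q 3.82) lay elsewhere in the intron sequence of the gene. *Ptpn2*, a phosphatase of JAKs and STATs, and *Cblb*, a ubiquitin ligase that restrains T cell activation, had peaks in Th9 library 1 and Th17 library 3 at different places. No SOCS gene had a peak in more than 1 library, and 4 of the 30 pathway genes (*Jak2*, *Pias1*, *Ptpn2* and *Cblb*) did, against 4.34% of all protein-coding genes. These shares were not tested against each other.

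The files hold no expression values, so the identity of the cultures and the SOCS mRNA levels cannot be read from them. As a partial check, marker loci were examined for BATF peaks. *Il9* had 2 peaks in Th9 library 2 and 0 in the other libraries, including Th9 library 1, in which the *Cish* peak was found. *Il17a* and *Il17f* shared a site that was called in both Th17 libraries and also in Th9 library 1. *Spi1*, which encodes PU.1, a factor of Th9 cells, had no peak in any library. These loci therefore did not separate Th9 library 1 from the Th17 libraries, and the part of this in the *Cish* result was not tested.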

How the data were processed

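BATF ChIP-seq of Th9 and Th17 cells was analysed from 12 peak lists, 3 for each of 4 BATF libraries. Per the submitters' processing notes, Trim Galore (0.4.3), Bowtie2 and MACS2 (2.1.0) were used with mm10. According to Methods, MACS2 used paired-end fragments, kept duplicate reads and applied a q limit of 0.01. Keeping duplicates lets PCR copies add to a peak. The control of each list is known from its name only. For each peak the authors deposited the fold enrichment, a ratio of signal to local background, and the −log10 q value. Read counts are not in the lists, so depth is unknown, and the number of peaks (199 to 4111 per library) limits the precision.

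Gene bodies were taken from RefSeq annotation release 108.20200622 on GRCm38. Peaks that shared at least 1 bp were merged into sites. Sequences were read with pysam 0.24.0, motifs were searched on both strands up to 100 bp from each summit, and analyses were run in Python 3.11.15 with numpy 2.4.6. Libraries were compared by an exact two-sided permutation test that went through every split of the libraries. The steps were tested on simulated peaks. The genes, the 4 pathway lists and the markers were chosen with earlier results of these data known. Genes outside the family were named when called in 2 or more libraries, as markers, or, for the members of the ligase, JAK and STAT lists with a peak, after their values were seen. Alternatives covered the control, threshold, distance, assignment, number of peaks, motif window and each library. The ATAC-seq and STAT5b data of the study were not analysed here. Not every marker examined is reported here.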

Additional observations from a re-analysis of the deposited data

How the results depend on the processing

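Of 79 recomputed values, 49 kept their direction or stayed near the reported value, 29 moved and 1 reversed. Part of the 49 could not have changed. Th9 library 2 and Th17 library 4 had 0 peaks at SOCS genes. Leaving either out could therefore not alter the gene, site or AP-1 counts. Genes in both cell types, 0 in the main setting, could not fall under a stricter one. A fall from 3 to 2 sites also counted as near. With peaks called against input alone, the difference between cell types (Th17 minus Th9 peaks at SOCS genes per library) was 0. A minimum −log10 q of 5 left 0 SOCS genes in Th9, and 1 site, which held an AP-1 site (1). Within 10 kb there were 0 genes in Th9, 0 in Th17, 0 sites, 0 with an AP-1 site and a difference of 0. Within 100 kb there were 2 genes in Th9, 2 in Th17, 1 in both and 5 sites. Assigning each peak to its nearest start site left 0 genes in Th9 and 1 site with an AP-1 site. With the same number of top peaks in each library (199), genes in Th9 (0), genes in Th17 (0), sites (0), AP-1 sites (0) and the difference (0) were all lost, and with peaks required in both libraries of a cell type, genes in Th9 (0), genes in Th17 (0) and sites (0) were. Leaving out each library in turn gave 0 to 1 genes in Th9, 0 to 1 in Th17, 1 to 3 sites, 1 to 2 with an AP-1 site, and a difference from -0.500 (without Th17 library 3) to 1.5 (without Th17 library 4). Without Th9 library 1 the *Cish* result was lost, and without Th17 library 3 both *Socs1* peaks were. The settings changed which peaks were counted or the gene a peak was assigned to, and the cause of each change was not tested. GENCODE vM21 gene bodies, an alternative added after seeing the data, and narrower or wider motif windows moved none of the counts they were run on. The low number of peaks in Th9 library 2 and Th17 library 4 limits what can be detected at any gene. No paired analysis was possible because no library number occurs in both cell types, with numbers 1 and 2 in Th9 and 3 and 4 in Th17.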
